A study of Homo sapiens with 7 samples.

Results

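The data below describe 7 long non-coding RNAs: MALAT1, NEAT1, KCNQ1OT1, MIAT and TUG1, which are kept largely in the nucleus, and NORAD and OIP5-AS1, which are found in part in the cytoplasm. They are 7 of the 60591 rows of the count table, taken by name. MALAT1 and NEAT1 were chosen by the measured fold changes of these same libraries, where they were among the largest rises under diclofenac, so their change is described here with no test. The other 5 were added by class. The libraries came from TE11, a cell line labelled as esophageal squamous cell carcinoma, given 200 µM diclofenac for 48 h (n = 4) or the solvent alone, 0.07% DMSO, for 48 h (n = 3). Diclofenac, a nonsteroidal painkiller, blocks cyclooxygenase enzymes. All libraries come from 1 line at 1 dose and 1 time. The labels do not say whether replicates were separate cultures, so p-values reflect the spread among these libraries alone, and that spread may be technical.

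Long non-coding RNAs are transcripts that are not translated, and several of the most abundant ones act inside the nucleus. MALAT1 sits in nuclear speckles, bodies rich in splicing factors. NEAT1 is the scaffold of paraspeckles, bodies that hold RNA-binding proteins and are known to grow under stress. KCNQ1OT1 is transcribed antisense to the potassium channel gene KCNQ1 and silences neighbouring imprinted genes on its own chromosome. TUG1 and MIAT are spliced RNAs of the nucleus, NORAD is a cytoplasmic and nuclear RNA that binds Pumilio proteins, repressors of messenger RNAs, and OIP5-AS1 is known as a sponge for microRNAs and RNA-binding proteins.

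MALAT1 and NEAT1 share an unusual 3′ end, shown here because these were the RNAs with the largest change among well-expressed genes. Their long forms do not end in an ordinary poly(A) tail. RNase P cuts the precursor ahead of a tRNA-like structure, and the new end folds into a triple helix between U-rich stretches and an A-rich tract. The stretches below are 5′ to 3′ in DNA letters from the GENCODE 29 transcripts, with the U-rich stretches and the A-rich tract in capitals. The first covers bases 8263 to 8355 of the longest MALAT1 transcript of 8708 bases. The second covers bases 22651 to 22743, the end of the longest NEAT1 transcript.
MALAT1: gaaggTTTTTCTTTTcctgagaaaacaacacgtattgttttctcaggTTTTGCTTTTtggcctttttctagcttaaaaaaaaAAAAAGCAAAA
NEAT1: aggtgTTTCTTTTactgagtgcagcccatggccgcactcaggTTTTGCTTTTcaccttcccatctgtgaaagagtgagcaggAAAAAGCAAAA
Both hold TTTTGCTTTT followed by AAAAAGCAAAA, letters that were picked for the search because the pair shares them. Over the longest transcript of each of 16066 annotated lncRNA genes, TTTTGCTTTT was found on the transcript strand in 154 (0.959%) and AAAAAGCAAAA in 67 (0.417%). The pair, with the tract starting within 93 bases of the U-rich stretch, was found in 2 of them, MALAT1 and NEAT1.

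NORAD is marked by repeats of the Pumilio recognition letters TGTANATA. The longest NORAD transcript, a single exon of 5339 bases, held 15 matches on its own strand, or 2.81 per kb. NEAT1 held 6, KCNQ1OT1 9, TUG1 2, OIP5-AS1 1 and MALAT1 and MIAT 0 matches. At least 1 match was present in 9.57% of the 16066 lncRNA transcripts and in 142 of the 283 that were 5000 bases or longer, and 15 or more matches in 4. In 3 places NORAD had a pair of matches 1 base apart, shown here from GENCODE 29 with the matches in capitals, at transcript bases 1436 to 1465, 2633 to 2662 and 3269 to 3298.
NORAD, first pair: tatctgTGTATATAgTGTACATAaaggaca
NORAD, second pair: ctatacTGTATATAtTGTATATAtaacgga
NORAD, last pair: gtgctgTGTATATAgTGTATATAagcggac
A match is a description of the letters and does not show that a Pumilio protein is bound there.

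Promoter windows of 250 bases before to 50 after the start were given by RefSeq (GRCh38.p14) for MALAT1 (2 starts), MIAT, TUG1, NORAD and OIP5-AS1. They were searched on both strands for TGATGNAA (the ATF4 and CHOP composite element core), the heat shock element, TGACGTCA (cyclic AMP element) and ACGTG (hypoxia element core). In none of these 6 windows were the first 3 of these motifs found, and their shares over all 35116 promoters were 3.62%, 0.49% and 1.85%. ACGTG, present in 21.4% of all promoters, was found in the windows of TUG1, NORAD and OIP5-AS1. In each of these windows at least 1 match lay inside CACGTG, the palindromic E-box, which was looked up after those matches were seen and which 7.26% of all promoters hold. The E-box stretches of the 3 RNAs are shown. NORAD and OIP5-AS1 are partly cytoplasmic, but TUG1 is nuclear retained, so the E-box does not divide these classes. The windows of MALAT1 and MIAT hold none, and no window was given for NEAT1 or KCNQ1OT1. The stretches lie at chr22:30969161-30969220 on the plus strand, chr20:36051066-36051125 on the minus strand and chr15:41283740-41283799 on the plus strand.
TUG1: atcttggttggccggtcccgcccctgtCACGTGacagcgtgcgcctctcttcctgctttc
NORAD: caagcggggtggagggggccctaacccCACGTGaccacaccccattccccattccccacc
OIP5-AS1: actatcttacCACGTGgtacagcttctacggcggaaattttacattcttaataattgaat
No match in a window says only that these letters are absent from it.

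Total counts ran from 19878696 to 24985098 under diclofenac and from 22364064 to 26490829 under vehicle, so that 3 counts were worth 0.113 to 0.151 CPM (counts scaled to a common library total). Normalized CPM below are CPM after scaling by TMM factors, which align the bulk of genes. Genes detected by 1 count or more numbered 29683 to 30570 under diclofenac and 26762 to 27403 under vehicle, and mitochondrial genes took 1.38 to 1.81% under diclofenac against 0.688 to 0.886% of counts under vehicle. Each had an exact permutation p of 0.0286, the smallest that 35 splits allow, or 0.0429 adjusted over 3 library measures. The part of either in the results below was not tested. Of 10 squamous and epithelial markers, 5 (SOX2, CDH1, EPCAM, KRT8 and KRT18) reached 1 CPM in all 7 libraries. The defining squamous keratins were at or near 0, with 1 count of KRT5 and 2 of KRT14 over the diclofenac libraries, 0 and 3 over the vehicle libraries, and no count of KRT6A, so the line is described here by its label. The summed leukocyte markers stayed at 0.047 to 0.158 normalized CPM under diclofenac and 0.0812 to 0.134 under vehicle, and summed fibroblast markers at 12.4 to 14.4 and 15.9 to 18.7, almost all of it COL1A1. The 3 neuron markers summed to 5.09 to 7.37 and 3.74 to 4.96, and the 3 endothelial ones to 0.321 to 0.657 and 0.134 to 0.292.

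MALAT1 was about 5-fold more abundant under diclofenac. It stood at 258, 269, 325 and 303 normalized CPM in diclofenac replicates 1 to 4, against 49.3, 52.9 and 57.4 in vehicle replicates 1 to 3. The lowest diclofenac library lay far above the highest vehicle library. The means were 289 ± 30.9 and 53.2 ± 4.08 (SD, n = 4 and 3), a log2 fold change of 2.44 (SE 0.0764). NEAT1 stood at 117, 121, 135 and 119 normalized CPM under diclofenac and at 26.8, 26.5 and 26.8 under vehicle, the vehicle libraries being almost identical. Its means were 123 ± 8.23 and 26.7 ± 0.2, a log2 fold change of 2.20 (SE 0.0577). The raw counts behind these values, 28288 in all diclofenac libraries and 3586 in all vehicle libraries for MALAT1 and 12013 and 1804 for NEAT1, leave little room for counting error.

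Among 4089 tested genes that averaged at least 6 log2 CPM, MALAT1 had the largest and NEAT1 the second largest rise. Over all 18311 tested genes, weakly expressed ones included, they ranked 92 and 129. These ranks use the values for which both were chosen. The genes with the most similar profile over the 7 libraries were found by the root mean square difference of log2 values, each gene taken from its own vehicle mean, over genes above the median of expression. For MALAT1 they were CHAC1 (0.178), SLC16A9 (0.187), NEAT1 (0.201), DDIT3 (0.21) and SLC6A9 (0.268). For NEAT1 they were SLC6A9 (0.0969), DDIT3 (0.113), SLC16A9 (0.14), CHAC1 (0.142) and PCLO (0.152). Since MALAT1 and NEAT1 were both chosen for large rises, their likeness to each other follows in part from the choice. With each gene taken from its own vehicle mean, the distance mostly reflects the size of the fold change. The genes listed are thus those with rises of like size, at log2 fold changes of 2.05 to 2.34. Whether they share any control with MALAT1 or NEAT1 was not tested. CHAC1 degrades glutathione, DDIT3 is the stress-response factor CHOP, SLC6A9 carries glycine, SLC16A9 is a transporter of the monocarboxylate family, and PCLO is a scaffold protein of the presynapse.

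**Figure D1:**
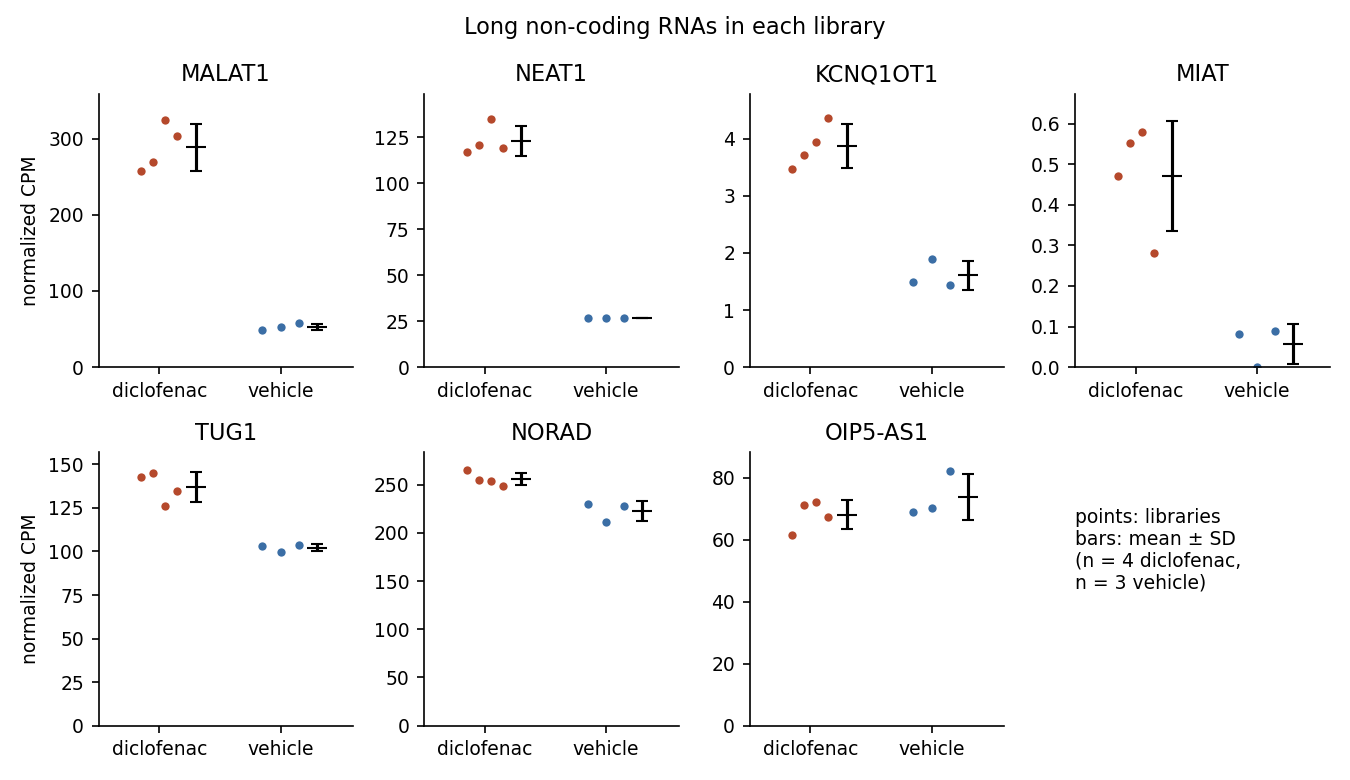
Normalized CPM of each RNA in each library, with diclofenac on the left and vehicle on the right of every panel, points for libraries and bars for mean ± SD (n = 4 and 3). The groups are apart for every RNA but OIP5-AS1, and the gap is widest in proportion for MALAT1, NEAT1 and the very weak MIAT.

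KCNQ1OT1 was weak and rose about 2.4-fold. Its counts were 74, 94, 102 and 109 under diclofenac and 37, 39 and 32 under vehicle. In normalized CPM these were 3.47, 3.71, 3.94 and 4.37 against 1.5, 1.9 and 1.43, and the groups did not overlap. The log2 fold change was 1.28 (SE 0.154, edgeR adjusted p = 1.42e-06). The KCNQ1OT1 gene lies inside KCNQ1 on the other strand, and the sources used here do not give the strand setting of the counting, so reads of this pair cannot be told apart with certainty.

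MIAT was close to the limit of detection. It had 10, 14, 15 and 7 counts under diclofenac and 2, 0 and 2 under vehicle. The ratio of count rates was 7.97 (95% exact Poisson interval 2.91 to 30.5, counting error only). MIAT passed the filter on low counts only through the diclofenac libraries, so that it had to differ to be tested, and it is left out of the counts below.

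TUG1 rose by a smaller amount. It stood at 143, 145, 126 and 135 normalized CPM under diclofenac and at 103, 99.8 and 104 under vehicle. The groups did not overlap, and the log2 fold change was 0.42 (SE 0.0505, edgeR adjusted p = 1.28e-06). NORAD rose less still, with 265, 255, 254 and 249 normalized CPM under diclofenac against 230, 211 and 228 under vehicle. Its log2 fold change was 0.20 (SE 0.0465, edgeR adjusted p = 0.0013), again without overlap. OIP5-AS1 did not pass the test, at 61.7, 71.1, 72.3 and 67.3 normalized CPM under diclofenac and 69.1, 70.1 and 82.3 under vehicle. The groups overlapped, and the log2 fold change was -0.11 (SE 0.0637, edgeR adjusted p = 0.13), turning to 0.07 under scaling by total counts alone.

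Of the 4 RNAs listed by class alone and free of the filter effect (KCNQ1OT1, TUG1, NORAD and OIP5-AS1), 3 passed the test as higher and none as lower. Of all 18311 tested genes, 30.2% were called higher, 29.5% lower and 59.7% in either direction by edgeR at an adjusted p under 0.05. The corresponding shares were 47.2% higher, 16.5% lower and 63.7% in either direction by total counts alone, 38.2%, 22.8% and 61% with upper-quartile factors, and 26.8%, 27.3% and 54.2% with the replicate number as a block. Groups without overlap in normalized CPM were seen in 3 of these 4 RNAs and in 58.5% of tested genes, 29.5% higher and 29% lower under diclofenac. A call or a lack of overlap was thus common among all genes.

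Of the nuclear retained RNAs, MALAT1 and NEAT1 were chosen for their rise and MIAT had to be higher to be tested, so only KCNQ1OT1 (1.28) and TUG1 (0.42) can be set beside NORAD (0.20) and OIP5-AS1 (-0.11) in log2 fold change. Leaving out MIAT, the mean log2 normalized CPM of the nuclear retained RNAs minus that of NORAD and OIP5-AS1 was -1.03, -1.05, -0.98 and -0.93 in diclofenac replicates 1 to 4. In vehicle replicates 1 to 3 the differences were -2.54, -2.4 and -2.63. The groups did not overlap. The measure includes MALAT1 and NEAT1, which were chosen for their rise, so this gap follows at least in part from the choice. The ratio of TUG1 to NORAD counts was 1.17-fold higher under diclofenac, that of KCNQ1OT1 to NORAD 2.1-fold higher, and that of OIP5-AS1 to NORAD 0.804 times its level under vehicle. No p is given for this contrast, since the members were chosen with results known.

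**Figure D2:**
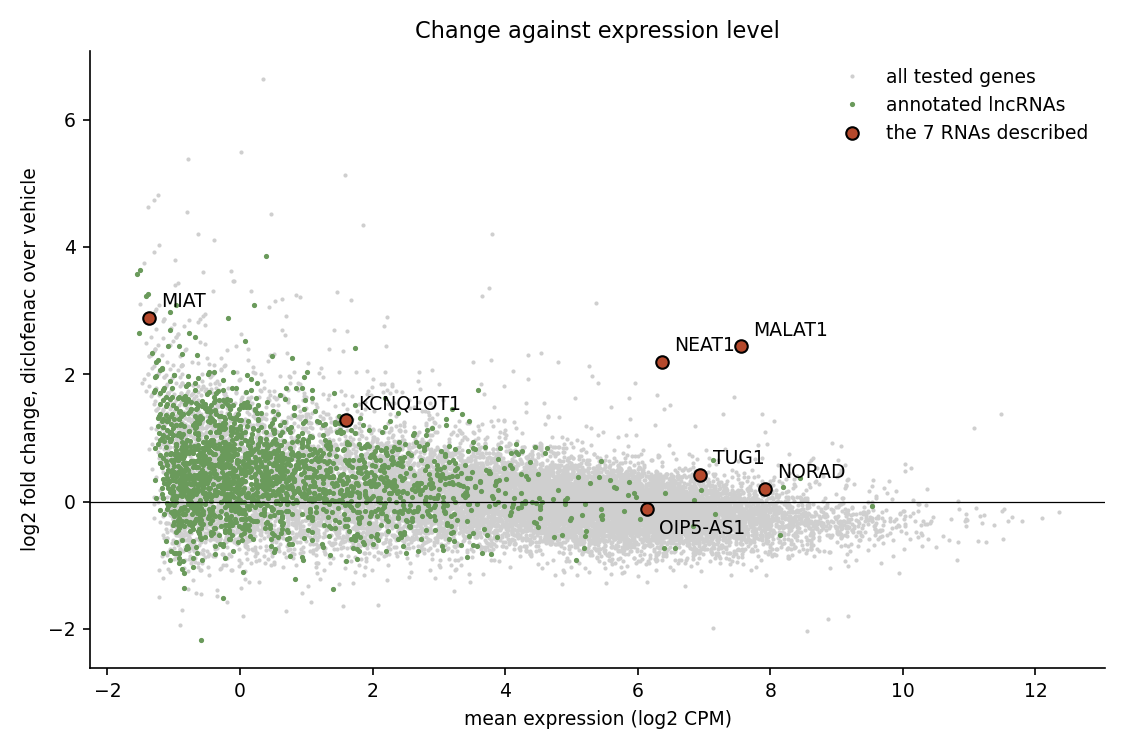
Log2 fold change of diclofenac over vehicle against mean expression in log2 CPM, for all 18311 tested genes (grey), annotated lncRNAs (green) and the 7 RNAs described (red). MALAT1 and NEAT1 stand above all other genes at 6 log2 CPM or more, while TUG1, NORAD and OIP5-AS1 lie within the cloud and MIAT sits at the low end, where scatter is wide.

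Because ratios within a library do not depend on the scaling, the RNAs were also compared with each other. MALAT1 had 0.972, 1.05, 1.28 and 1.22 counts per count of NORAD under diclofenac and 0.215, 0.251 and 0.251 under vehicle. In counts, MALAT1 was thus about level with NORAD under diclofenac and well below it under vehicle. NEAT1 had 0.44, 0.475, 0.53 and 0.477 counts per NORAD count under diclofenac and 0.117, 0.126 and 0.117 under vehicle. MALAT1 and NEAT1 stayed closer in proportion to each other, with 2.21, 2.22, 2.41 and 2.56 MALAT1 counts per NEAT1 count under diclofenac against 1.84, 2.00 and 2.15 under vehicle. The ratio was 1.18-fold higher under diclofenac, against the 4.71-fold and 4-fold higher ratios to NORAD. MALAT1 and NEAT1 were both chosen for large rises and NORAD was not, so this contrast follows from the choice.

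Levels between RNAs are compared per kb of the longest annotated transcript, in normalized CPM per kb. Under diclofenac the order was NORAD (48.0 ± 1.3), MALAT1 (33.2 ± 3.55), TUG1 (18.4 ± 1.15), OIP5-AS1 (7.72 ± 0.538), NEAT1 (5.40 ± 0.362), MIAT (0.0464 ± 0.0133) and KCNQ1OT1 (0.0423 ± 0.00418). The last pair did not differ beyond its spread. Under vehicle the order was NORAD (41.8 ± 2.02), TUG1 (13.7 ± 0.307), OIP5-AS1 (8.36 ± 0.835), MALAT1 (6.11 ± 0.468), NEAT1 (1.17 ± 0.00878), KCNQ1OT1 (0.0176 ± 0.00274) and MIAT (0.00561 ± 0.00487). In that order MALAT1 stood above TUG1 and OIP5-AS1 under diclofenac and below both under vehicle. NEAT1 also has short forms that share its 5′ part, and counts per gene do not tell them from the long form, whose length is used here.

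**Figure D3:**
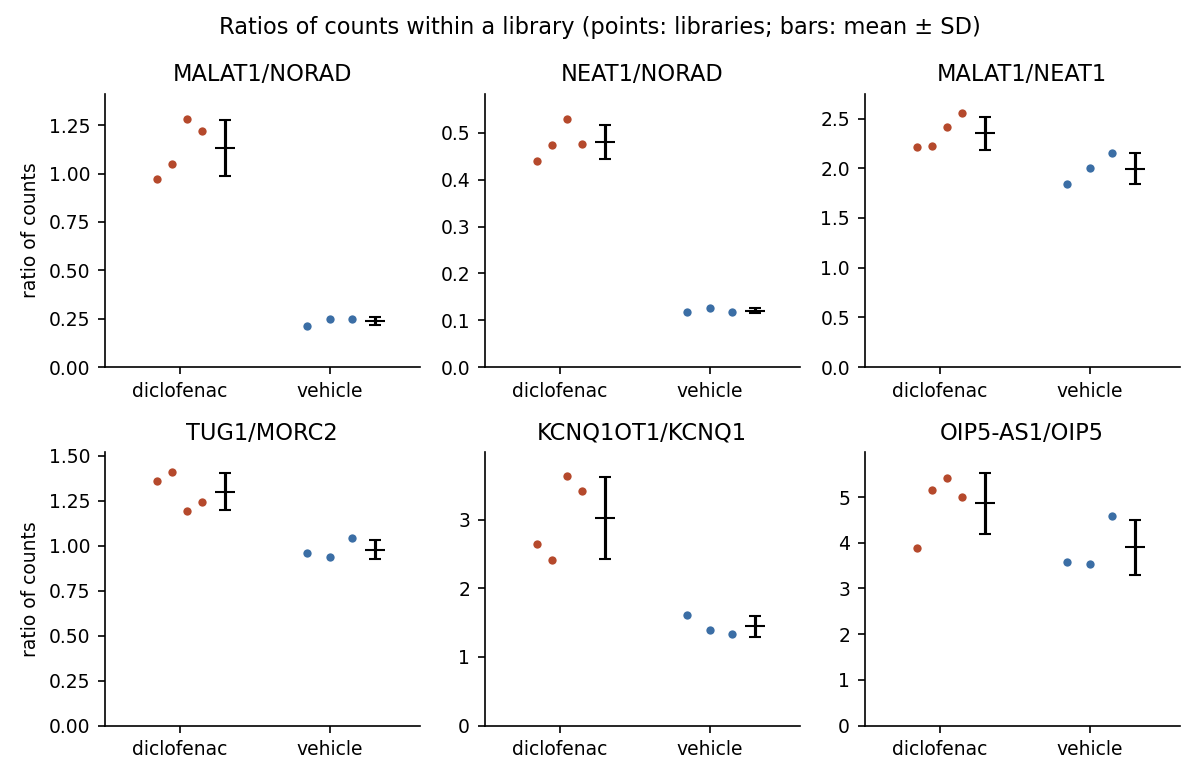
Ratios of raw counts within each library, diclofenac on the left and vehicle on the right of every panel, points for libraries and bars for mean ± SD. The ratios to NORAD are 4.71-fold (MALAT1) and 4-fold (NEAT1) higher under diclofenac, that of MALAT1 to NEAT1 is 1.18-fold higher, and only the ratio of OIP5-AS1 to OIP5 overlaps between the groups.

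None of the partner genes on the other strand or next to a shared promoter was called higher with TMM factors. TUG1 is annotated with a bidirectional promoter, and MORC2, a chromatin remodelling ATPase, lies next to it. MORC2 stood at 106 ± 2.29 normalized CPM under diclofenac and 105 ± 4.01 under vehicle (log2 fold change 0.01, SE 0.0438, edgeR adjusted p = 0.818), and by total counts alone it was called higher (0.19). The ratio of TUG1 to MORC2 counts was 1.36, 1.41, 1.19 and 1.24 under diclofenac and 0.957, 0.938 and 1.04 under vehicle. KCNQ1 itself did not pass (log2 fold change 0.23, SE 0.211, edgeR adjusted p = 0.367), and there were 2.64, 2.41, 3.64 and 3.41 KCNQ1OT1 counts per KCNQ1 count under diclofenac against 1.61, 1.39 and 1.33 under vehicle. OIP5, a centromere protein gene whose end overlaps that of OIP5-AS1, fell by 0.43 (SE 0.0733, edgeR adjusted p = 6.21e-05), and the ratio of OIP5-AS1 to OIP5 was 3.89, 5.15, 5.42 and 4.99 against 3.58, 3.53 and 4.58. By an exact two-sided permutation test of the log ratios, p was 0.0286 for TUG1 over MORC2 and for KCNQ1OT1 over KCNQ1, the smallest the design allows, and 0.143 for OIP5-AS1 over OIP5. Adjusted over the 3 ratios the p-values were 0.0429, 0.0429 and 0.143.

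Of 31 genes listed as neighbours of the 7 RNAs, 24 were tested, of which 3 (12.5%) rose and 13 (54.2%) fell. Of all tested genes 30.2% rose and 29.5% fell. The median log2 fold change was -0.20 against 0.02 over all genes. With total-count scaling 6 rose and 9 fell, against 47.2% and 16.5% of all tested genes. From the surroundings of MALAT1 and NEAT1, FRMD8 fell by 0.55 (SE 0.0563, edgeR adjusted p = 2.12e-07), and ZNRD2 and FAM89B had log2 fold changes of -0.61 and -0.65. Of the genes near KCNQ1OT1, the cell cycle inhibitor CDKN1C fell by 0.42 (SE 0.123, edgeR adjusted p = 0.00682), a call that was lost by total counts alone. The tetraspanin CD81 fell by 0.57, TSSC4 by 0.42 and NAP1L4 by 0.24, and the lipid transfer protein gene OSBPL5 rose by 0.21. PHLDA2 (0.22, edgeR adjusted p = 0.307) and SLC22A18 (0.11, edgeR adjusted p = 0.578) did not pass. Whether any of these changes relates to KCNQ1OT1 was not tested. SMTN rose by 0.22. The third call as higher was EXD1, with 8, 14, 15 and 12 counts under diclofenac and 7, 5 and 4 under vehicle, which passed the filter on low counts only through the diclofenac libraries and gives no support to a rise.

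Transcripts of proteins reported in the paraspeckles that NEAT1 scaffolds were mostly lower. Of 26, 20 fell, 2 rose and 4 did not pass, with a median log2 fold change of -0.27. With total-count scaling 5 were higher and 13 lower, against 47.2% and 16.5% of all tested genes. Of the 26, 23 lay at 6 log2 CPM or more, where 60.2% of 4089 tested genes fell with a median of -0.19, against 76.9% of this list. Among the core proteins, NONO stood at 715 ± 22 normalized CPM under diclofenac and 975 ± 19.9 under vehicle (log2 fold change -0.45, SE 0.0453, edgeR adjusted p = 1.72e-07). PSPC1 fell by 0.45. SFPQ fell by 0.20, but by total counts alone its log2 fold change was -0.01 (edgeR adjusted p = 0.771). The largest falls in the list were those of FAM98A, HNRNPM and RBM4, with log2 fold changes of -0.59, -0.52 and -0.49. The rises were those of ZC3H6, with 14.4 ± 1.6 normalized CPM under diclofenac and 6.09 ± 0.429 under vehicle, and of SS18L1, by 0.33.

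Of 20 transcripts of nuclear speckle proteins, 9 (45%) fell, 2 rose and 9 did not pass (median -0.10). Of the 20, 19 lay at 6 log2 CPM or more, where 60.2% of all tested genes fell with a median of -0.19, so the falls were no more frequent than in that band. The split was 5 falls and 8 rises with total-count scaling and 7 falls and 3 rises with upper-quartile factors. Over all tested genes 16.5% fell and 47.2% rose with total-count scaling, and 22.8% and 38.2% with upper-quartile factors. The splicing factors SRSF3, SRSF2 and SART1 fell, with log2 fold changes of -0.53, -0.52 and -0.34, and the speckle scaffold SRRM2 rose by 0.26 (SE 0.0456, edgeR adjusted p = 8.08e-05), with AKAP17A at 0.20. All 5 kept their direction under the scalings tried.

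A further list held enzymes that form the 3′ ends shown above, a protein that binds the triple helix and factors reported for the NEAT1 forms. Of its 16 genes, 9 (56.2%) fell and none rose (median -0.19). Of all tested genes 29.5% fell, and of those at 6 log2 CPM or more, where 8 of the 16 lay, 60.2% fell. With total-count scaling 2 were higher and 5 lower, against 47.2% and 16.5% of all tested genes. ELAC2, the RNase Z that trims the tRNA-like product of MALAT1, stood at 145 ± 3.63 normalized CPM under diclofenac and 245 ± 11.6 under vehicle (log2 fold change -0.76, SE 0.0451, edgeR adjusted p = 2.78e-10). POP1 and POP5 of RNase P fell, with log2 fold changes of -0.62 and -0.61. METTL16, a methyltransferase that binds the triple helix of MALAT1, fell by 0.11, a direction that turned to 0.07 by total counts alone. For nuclear RNA decay, 14 of 19 (73.7%) fell and 3 rose (median -0.18), with 11 of the 19 in that upper band. The split was 6 falls and 4 rises with total-count scaling and 9 falls and 4 rises with upper-quartile factors. Over all tested genes 16.5% fell and 47.2% rose with total-count scaling, and 22.8% and 38.2% with upper-quartile factors. The exosome subunits EXOSC5, EXOSC4 and EXOSC3 fell, with log2 fold changes of -0.98, -0.96 and -0.49. ZCCHC8, of the complex that targets nuclear RNAs to the exosome, rose by 0.29, ZFC3H1 of a related complex by 0.19 and EXOSC8 by 0.24.

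The Pumilio gene PUM2 rose by 0.21 (SE 0.051, edgeR adjusted p = 0.00165). NORAD itself was at 0.20. In the wider list of Pumilio proteins and reported NORAD partners, 2 of 12 rose and 6 (50%) fell (median -0.13). Of the 12, 11 lay in the upper band, where 15% of tested genes rose and 60.2% fell. With total-count scaling 5 were higher and 5 lower, against 47.2% and 16.5% of all tested genes. NANOS1, a partner of Pumilio proteins, fell by 1.27, and the export factor ALYREF and the splicing factor PRPF19 had log2 fold changes of -0.72 and -0.56.

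**Figure D4:**
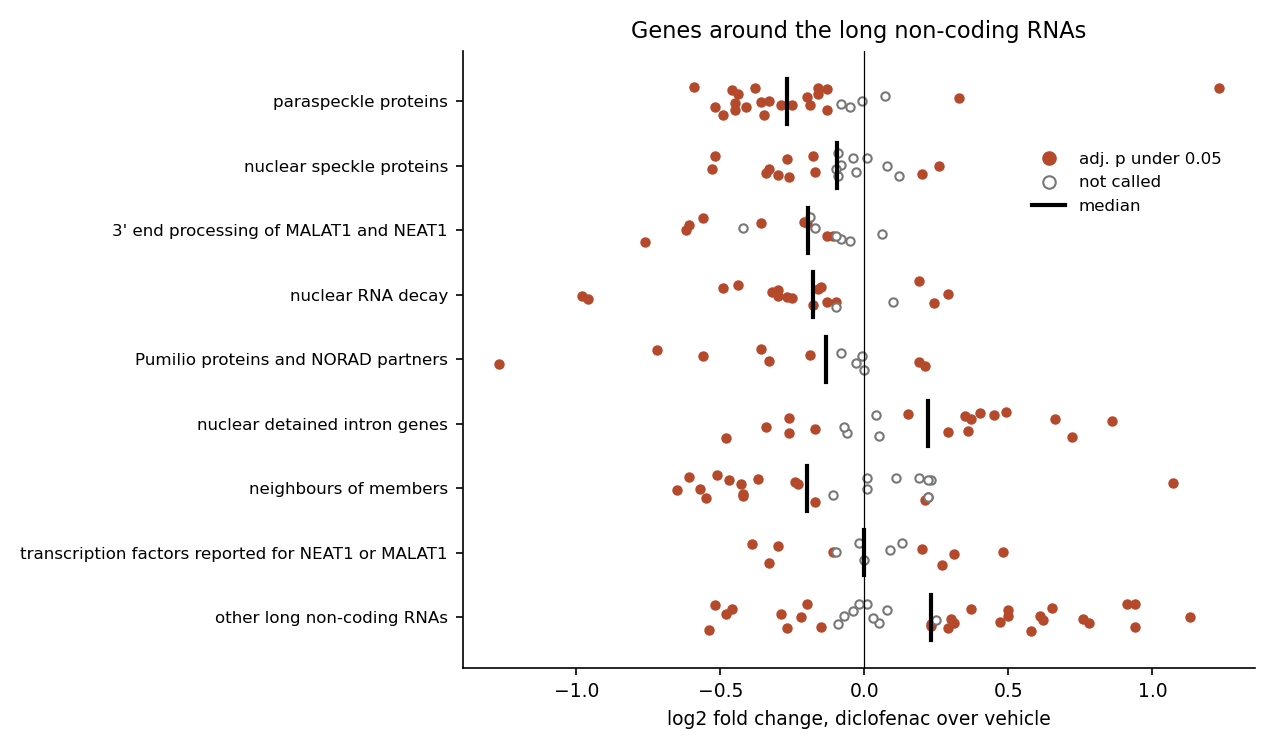
Log2 fold changes of diclofenac over vehicle for the tested genes of 9 lists, filled where the edgeR adjusted p is under 0.05, with the list median as a bar. Medians lie below 0 for the paraspeckle, speckle, 3′ end, decay, Pumilio and neighbour lists and above 0 for detained-intron genes and other lncRNAs. By total counts alone the median of the speckle and Pumilio lists lies above 0 and that of the decay list at 0. Under that scaling the median over all tested genes is 0.2.

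Messenger RNAs known to be held in part in the nucleus with introns were more often called higher than lower. Of 20, 11 (55%) rose and 5 (25%) fell (median 0.22). Of all tested genes 30.2% rose and 29.5% fell. At 6 log2 CPM or more, where 13 of the 20 lay, 15% rose and 60.2% fell. With total-count scaling 14 of the 20 were higher and 2 lower, against 47.2% and 16.5% of all tested genes. ANKRD36C, GOLGA8B and GOLGA8A rose by 0.86, 0.72 and 0.66, with the caution that each belongs to a family of near-identical copies between which reads can be split. LUC7L, MAT2A and DDX5 fell, with log2 fold changes of -0.48, -0.34 and -0.26, the last of these not called by total counts alone.

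Among transcription factors reported in other cells to act on NEAT1 or MALAT1, 4 of 13 (30.8%) rose and 4 (30.8%) fell (median 0.00). These shares were near those of all tested genes, of which 30.2% rose and 29.5% fell. With total-count scaling 8 were higher and 3 lower, against 47.2% and 16.5% of all tested genes. With upper-quartile factors these were 6 and 3, against 38.2% and 22.8%. ATF4, the central factor of the integrated stress response, stood at 1190 ± 83.3 normalized CPM under diclofenac and 856 ± 31.6 under vehicle (log2 fold change 0.48, SE 0.0558, edgeR adjusted p = 9.38e-07), and SP3 rose by 0.27. HSF1, the heat shock factor, fell by 0.30, and E2F1 and the hypoxia factor EPAS1 had log2 fold changes of -0.33 and -0.39. HIF1A did not pass, at a log2 fold change of -0.02 (SE 0.0509, edgeR adjusted p = 0.721), and by total counts alone was called higher (0.16). These are transcript levels and say nothing of the activity of the proteins.

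Long non-coding RNAs as a class leaned higher. Of 2016 tested rows annotated as lncRNA, 840 (41.7%) were called higher and 153 (7.59%) lower, with a median log2 fold change of 0.38. Most of them are weak, and the filter admits weak genes more readily through the 4 diclofenac libraries than through the 3 of vehicle. Tested lncRNA rows numbered 1893 to 1937 with a diclofenac library left out. With a vehicle library left out they numbered 2188 to 2208, but the smallest group is then smaller and the filter asks for fewer passing libraries. The ranges are therefore not comparable, and the part of the filter in the lean of the class was not tested. Below 0 log2 CPM the median was 0.41 over 2583 tested genes, 0.52 over 854 lncRNAs and 0.61 over 927 coding genes. In that band 37% of the lncRNAs and 43.5% of the coding genes were higher. Between 0 and 2 log2 CPM, 44% of 761 lncRNAs and 42.4% of 1546 coding genes were higher. In these low bands, which hold most of the lncRNAs, coding genes thus leaned higher about as often. The bands of expression were added after the class counts were seen. Between 2 and 4 log2 CPM, 49% of 314 lncRNAs and 42.2% of 2472 coding genes were higher. Between 4 and 6 log2 CPM, 37.7% of 69 lncRNAs were higher and 26.1% lower (median 0.03), and 32% of 4754 coding genes were higher and 34.5% lower. At 6 log2 CPM and above, 9 of 18 lncRNAs (50%) were higher and 6 (33.3%) lower (median 0.09). Of 3888 coding genes in that band, 15.2% were higher and 59.8% lower. Of the 9 higher lncRNAs, 4 were MALAT1, NEAT1, TUG1 and NORAD, and the calls of MALAT1 and NEAT1 follow from the choice. The 18 include 5 of the RNAs described here, and by log2 fold change MALAT1 ranked 1, NEAT1 2, TUG1 4, NORAD 7 and OIP5-AS1 12. Rows whose longest transcript has 1 exon, as MALAT1, NEAT1, KCNQ1OT1 and NORAD have, were called higher in 34.7% of 649 cases, and rows with more exons in 45% of 1367.

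LncRNA genes took 1.11 to 1.13% of all counts under diclofenac and 0.856 to 0.865% under vehicle. Without MALAT1 and NEAT1 the shares were 1.07 to 1.09% under diclofenac and 0.849 to 0.857% under vehicle. MALAT1 and NEAT1 together took 0.0402 to 0.0477% under diclofenac and 0.00708 to 0.00792% under vehicle. Among 45 further named lncRNAs, 37 were tested, of which 19 (51.4%) rose and 9 (24.3%) fell (median 0.23). Of all tested lncRNA rows 41.7% rose and 7.59% fell, and of all tested genes 30.2% and 29.5%. With total-count scaling 23 were higher and 3 lower, against 47.2% and 16.5% of all tested genes. With upper-quartile factors these were 21 and 5, against 38.2% and 22.8%. The microRNA host MIR22HG, CYTOR and PVT1 rose, with log2 fold changes of 1.13, 0.94 and 0.94, and DANCR, SNHG12 and LINC00511 fell, with log2 fold changes of -0.54, -0.52 and -0.48, the last of these not called by total counts alone or with upper-quartile factors.

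Since the long forms of MALAT1 and NEAT1 lack an ordinary poly(A) tail, their measured level can depend on whether libraries were made from poly(A) RNA, which the labels do not give. Of 20 small RNAs without a poly(A) tail, 7 had no count in any library, 17 (these 7 included) stayed under 10 counts in every library, and 2 were tested. RN7SL1 had 535, 846, 1797 and 1254 counts under diclofenac and 1385, 1438 and 3075 under vehicle, and RMRP 21, 15, 36 and 33 against 38, 57 and 102. Both fell, RN7SL1 by 0.97 (SE 0.266, edgeR adjusted p = 0.00439) and RMRP by 1.44 (SE 0.309, edgeR adjusted p = 0.000627). RN7SL1 overlapped between the groups, and what these values say of the MALAT1 and NEAT1 levels was not tested.

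**Figure D5:**
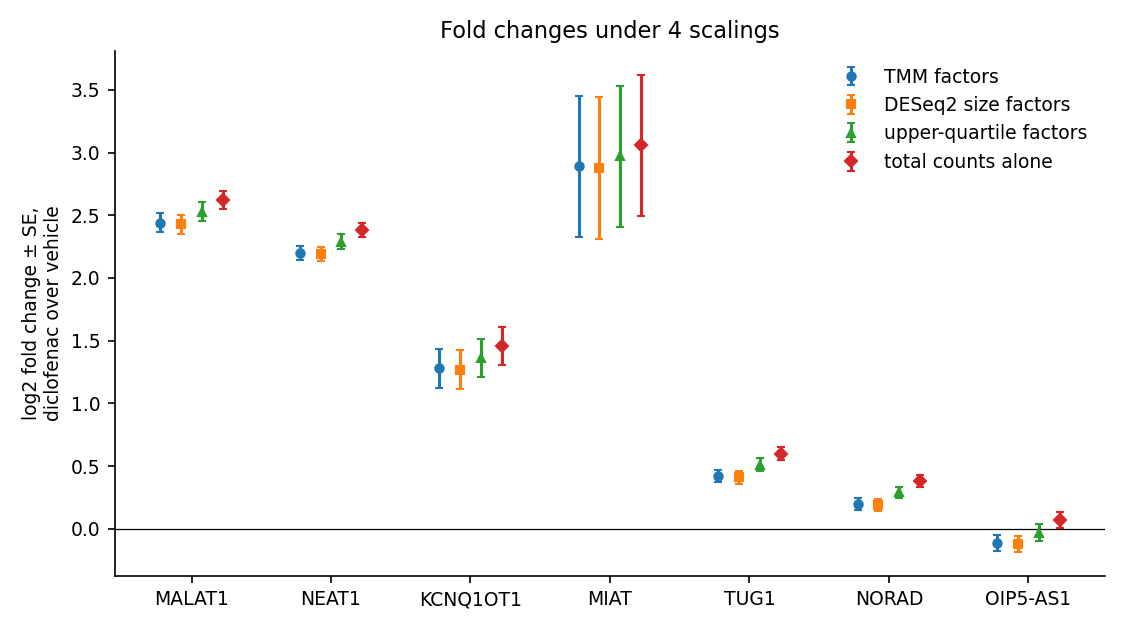
Log2 fold change ± SE of diclofenac over vehicle for the 7 RNAs under 4 scalings of the libraries. The 6 RNAs from MALAT1 to NORAD stay above 0 under each, and OIP5-AS1 lies below 0 under 3 and above 0 by total counts alone.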

How the data were processed

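Column-purified TE11 RNA went into directional libraries, per the labels' protocols. The values are raw counts per gene as deposited by the authors, with 1 column per library and no normalization. The submitters' processing notes name DESeq and the build GRCm38, although the rows carry human symbols. The aligner, counter, annotation and strand setting are not given in the sources used here. Of 60591 rows, 56553 (93.3%) matched GENCODE 29 by symbol or identifier, which gave gene classes and transcript lengths only; 25 rows whose symbol GENCODE gives to genes of different classes were kept out of the lncRNA class.

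Genes were filtered with filterByExpr (minimum count 10, minimum total 15), given TMM factors and fitted in edgeR 4.0.16 (R 4.3.3) by quasi-likelihood, with group as the only term and Benjamini-Hochberg adjustment over 18311 genes. A call is an adjusted p under 0.05. SE were derived from the F statistic. Log2 values per library used a prior count of 2. Steps were tested on simulated data. Alternatives were DESeq2 1.42.0, limma 3.58.1 with trend, other scalings and filters, leaving out each library, and the replicate number as a block. The RNAs and gene lists were chosen with earlier results of these data known. Named genes were those fixed by name and, for each list, up to 3 called genes with the largest change in each direction. The other tested genes near KCNQ1OT1 were named as well. Some genes that this rule names are not reported here. The 3′ letters, the Pumilio letters, the E-box, the bands of expression and the ratios to NORAD were chosen after values or sequences were seen. Pairs of libraries of a group differed beyond sampling noise (chi-square per degree of freedom 2.17 to 7.4 over genes with at least 20 counts).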

Additional observations from a re-analysis of the deposited data

Results flagged for a closer look

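Of 87 values checked in the 4 diclofenac libraries, 2 had a library far from the other 3, where chance gives about 1 in 20. HIF1A stood at 81.8 normalized CPM in diclofenac replicate 3, against 85.1 to 85.7 in the others. MIR22HG stood at 3.95 normalized CPM in diclofenac replicate 2, against 3.4 to 3.47 in the others. None of the 7 long non-coding RNAs was among them.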

How the results depend on the processing

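Over 15 alternatives, the log2 fold changes ranged from 2.38 to 2.62 for MALAT1, 2.16 to 2.38 for NEAT1, 1.19 to 1.46 for KCNQ1OT1, 0.40 to 0.60 for TUG1 and 0.15 to 0.38 for NORAD. The direction was the same in each, and KCNQ1OT1, TUG1 and NORAD were called in each (edgeR, DESeq2 or limma adjusted p at most 0.0183). MIAT ranged from 2.00 to 3.26 in the 11 in which it was tested. OIP5-AS1 ranged from -0.17 to 0.07. It turned to 0.07 by total counts alone, and with no filter it was called lower (-0.14, edgeR adjusted p = 0.0345, over a range of 0.0345 to 0.735). The cause was not tested. Among the neighbours, 1 rise remained without vehicle replicate 3 or diclofenac replicate 3. With total-count scaling the median over all genes shifted by 0.18, and calls were 8635 higher and 3029 lower, against 5535 and 5402 with TMM factors. Calls in the nuclear RNA decay list fell to 10 of 19 under that scaling. The counts of calls in the other lists and over all genes stayed within 1.5 times under every scaling, the block and each left-out library, where calls over all genes ranged from 9908 to 10710. Replicate numbers 1 to 3 are shared by the groups. Deviations of libraries with the same number correlated at only -0.05 to 0.02, which gave no sign of pairing by number. With so few libraries such correlations cannot exclude it. With the replicate block 9918 genes were called, and of the 4 RNAs listed by class alone (MIAT left out) 3 were called higher and 0 lower, as with TMM factors and no block. At 4 and 3 libraries an exact permutation cannot give a p below 0.0286, and MIAT is limited by its depth.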

Other observations

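Among the 18 lncRNA rows at 6 log2 CPM or more, some outside the 7 RNAs changed in either direction, and those named here were picked after their values were seen. GAS5, host of small nucleolar RNAs, stood at 166 ± 7.85 normalized CPM under diclofenac and 106 ± 1.2 under vehicle (log2 fold change 0.65, SE 0.0461, edgeR adjusted p = 2.11e-09). ZNF503-AS2 stood at 65.3 ± 4.45 normalized CPM under diclofenac and 108 ± 2.39 under vehicle (log2 fold change -0.73, SE 0.0512, edgeR adjusted p = 1.91e-09).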
